A study of Arabidopsis thaliana with 30 samples.

Results

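The 10 genes described here encode proteins that work at the replication fork or in S phase, the part of the cell cycle in which nuclear DNA is copied. They were chosen by name: MCM2, MCM3, MCM4, MCM5, MCM6 and MCM7, PCNA1, PCNA2, CYCA3;1 and TSO2. All 10 were found among the 33602 gene identifiers of the count table, and all 10 were among the 21472 genes that passed a filter on low counts. RNA was sequenced from the petiole region of excised leaves of Arabidopsis thaliana. The leaf, the fourth of the rosette, came from plants that were 21 days old and was floated on buffer under continuous white light. In the study, roots at the cut petiole were scored on excised leaves placed on agar medium. Libraries were made at excision (0 h) and then every 24 h up to 96 h from WT, which here is Col carrying an ORE1::LUC reporter, and from eur1-11, a mutant made by chemical mutagenesis of that same reporter line. Each of the 10 groups of genotype and time held 3 replicates, so that 30 libraries were compared.

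The gene mutated in eur1-11 is EAR1 (also EUR1, AT5G22090), a negative regulator of abscisic acid signalling, and the line is a single allele. Its mean transcript level in CPM (counts scaled to a common library size) was 184.1 ± 68.8 in eur1-11 and 239.4 ± 38.3 in WT at 0 h (SD, n = 3), and it was detected in every library. A chemically induced allele need not change the level of its own transcript, so this level is no check of the genotype. Libraries held 22482318 to 43243161 counts on genes. Counts of chloroplast genes made up 55.8 to 62.9% of them at 0 h and 18.7 to 26.5% at 96 h, so levels are given as CPM after TMM scaling, which sets libraries against each other by their common genes. The labels do not say whether replicates were separate plants or harvests, and a p-value here reflects only how far these samples scatter.

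Eukaryotic DNA is licensed for replication when a ring of the proteins MCM2 to MCM7, the core of the replicative helicase, is loaded on origins by the origin recognition complex with CDC6 and CDT1. PCNA is the sliding clamp that holds DNA polymerases on the template, TSO2 is a small subunit of ribonucleotide reductase, which makes deoxynucleotides, and CYCA3;1 is an A-type cyclin of the transition from G1 into S phase. In plants many such genes carry binding sites of E2F transcription factors, which act at that transition, and tissue with more cells in S phase holds more of their transcripts. In these bulk samples a change in the number of such cells and a change in transcript per cell cannot be told apart.

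The genes lie on chromosomes 1 to 5, and their upstream sequence was read from the TAIR10.1 genome to show the motifs they share. The 250 bases before each annotated gene start were searched on both strands for 4 E2F motifs of 8 letters, TTTCCCGC, TTTGGCGC, TTTCGCGC and TTTGCCGC. They were also searched for TGGGCC, the core of site II elements that are common before genes of dividing cells. An E2F motif was found before 5 of the 10 genes, MCM2 to MCM6, and before 1.41% of 27443 protein-coding genes. TGGGCC was found before 7 of the 10, these 5 with PCNA2 and CYCA3;1, and before 13.7% of all. Neither was found before MCM7, PCNA1 or TSO2 in this window. The following stretches, printed 5′ to 3′ on the strand of the gene, hold the E2F motif of the MCM genes in capitals with up to 20 bases on each side, and the TGGGCC of CYCA3;1 in capitals in the same way.
MCM2 (chr1:16970180-16970213, plus strand): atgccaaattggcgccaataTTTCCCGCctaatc
MCM3 (chr5:18773849-18773896, minus strand): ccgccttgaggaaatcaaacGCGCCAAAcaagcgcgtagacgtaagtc
MCM4 (chr2:7130737-7130784, minus strand): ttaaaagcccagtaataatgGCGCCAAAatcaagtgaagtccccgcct
MCM5 (chr2:3527501-3527539, minus strand): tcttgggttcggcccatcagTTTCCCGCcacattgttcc
MCM6 (chr5:18010686-18010733, minus strand): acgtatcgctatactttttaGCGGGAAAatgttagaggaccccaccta
CYCA3;1 (chr5:17292880-17292925, plus strand): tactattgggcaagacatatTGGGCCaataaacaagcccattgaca
Capitals that begin with GCG are the motif read on the opposite strand. The motif of MCM2 starts 14 bases before the gene and that of MCM3 170 bases before it, with the other MCM motifs between them. A match is a run of letters and says nothing about binding.

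The level of each gene in each library is plotted by time. In WT every one of the 10 genes had its lowest mean at 0 h and its highest at 24 h. Among all genes tested 46.2% were lowest at 0 h and 22.8% highest at 24 h. In eur1-11 all 10 were again highest at 24 h, against 22.5% of all genes, and 8 were lowest at 0 h. PCNA1 and MCM6 were lowest at 72 h there.

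**Figure D1:**
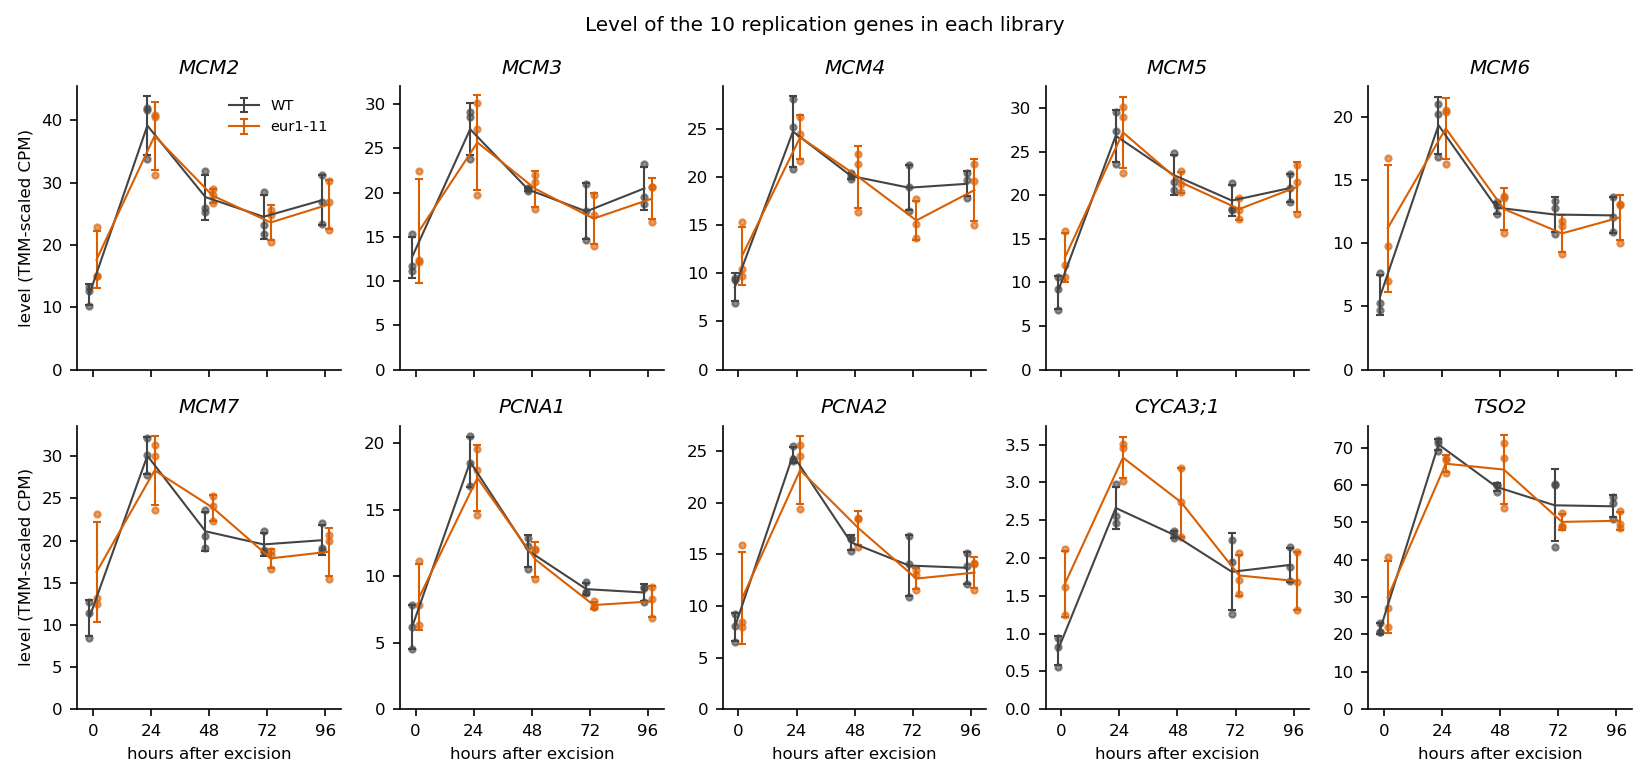
Level of each gene (TMM-scaled CPM, linear axis from 0) against hours after excision, with 1 point per library and lines through the means with SD bars (n = 3). The 24 h libraries are the high point of every panel, and the eur1-11 libraries at 0 h are widely spread.

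MCM2 (AT1G44900), a subunit of the helicase ring, is on chromosome 1 from 16970214 to 16974753. Its level in the WT libraries at 0 h was 12.7, 10.14 and 13.3 CPM, and at 24 h it was 42.0, 41.7 and 33.8 CPM. At 96 h it was 31.3, 26.9 and 23.3 CPM. Every later WT library shown was above every 0 h library, and the 24 h libraries were above the 96 h libraries. In eur1-11 the libraries read 14.98, 15.06 and 22.9 CPM at 0 h, then 40.5, 40.8 and 31.3 CPM at 24 h and 26.9, 30.3 and 22.4 CPM at 96 h. Here the lowest 96 h library lay just under the highest 0 h library, so those groups overlapped.

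MCM7 (AT4G02060, also named PROLIFERA), another subunit of the same ring, is on chromosome 4 from 900636 to 905591. It read 11.3, 8.44 and 12.7 CPM in the WT libraries at 0 h and 30.2, 32.2 and 27.8 CPM at 24 h. The eur1-11 libraries read 12.5, 13.2 and 23.1 CPM at 0 h and 30.03, 31.3 and 23.6 CPM at 24 h. In WT the groups were far apart, while in eur1-11 replicate 3 at 0 h nearly reached replicate 3 at 24 h. MCM7 shares bases with AT4G02055 on its own strand and with AT4G02050 on the other, PCNA2 with AT2G29560 on the other strand and TSO2 with AT3G27050 on its own. The strand setting of the counting was not given in the sources used here, so reads of antisense neighbours cannot be told apart. No run of 50 exon bases of any of the 10 genes occurred elsewhere in the nuclear genome.

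The other subunits of the ring followed the same course. MCM3 (AT5G46280, chromosome 5 from 18769649 to 18773706) read 11.7, 11.1 and 15.3 CPM in WT at 0 h and 28.5, 29.1 and 23.8 CPM at 24 h, and 12.2, 12.4 and 22.5 CPM in eur1-11 at 0 h and 30.1, 27.1 and 19.7 CPM at 24 h. In eur1-11 replicate 3 was higher at 0 h than at 24 h, so its groups overlapped. MCM4 (AT2G16440, chromosome 2 from 7126279 to 7130729) read 9.32, 6.87 and 9.46 CPM in WT at 0 h and 25.2, 28.1 and 20.8 CPM at 24 h. Its eur1-11 libraries read 9.74, 10.4 and 15.3 CPM at 0 h and 24.5, 26.2 and 21.7 CPM at 24 h, with no overlap. MCM5 (AT2G07690, chromosome 2 from 3522984 to 3527500) had 9.21, 6.81 and 10.6 CPM in WT at 0 h and 27.3, 29.5 and 23.6 CPM at 24 h, and MCM6, on chromosome 5 from 18006212 to 18010667, had 20.23, 21.03 and 16.8 CPM at 24 h. Both were separate from 0 h in WT. In eur1-11 MCM5 went from 10.6, 12.03 and 15.9 CPM to 30.1, 28.9 and 22.5 CPM, with no overlap, and MCM6 had 20.6, 20.4 and 16.3 CPM at 24 h, of which the lowest lay under the highest 0 h library.

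TSO2 (AT3G27060) is on chromosome 3 from 9979841 to 9981620. Its level in the WT libraries was 20.7, 20.7 and 23.2 CPM at 0 h, 71.3, 69.2 and 72.1 CPM at 24 h and 55.2, 56.8 and 51.0 CPM at 96 h. In eur1-11 it was 22.0, 27.2 and 40.6 CPM at 0 h, 66.8, 67.3 and 63.2 CPM at 24 h and 49.7, 53.1 and 48.6 CPM at 96 h. TSO2 at 96 h stayed above every 0 h library in both genotypes.

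PCNA1 (AT1G07370) is on chromosome 1 from 2263037 to 2264553. The WT libraries read 6.16, 4.49 and 7.84 CPM at 0 h, 20.5, 18.5 and 16.8 CPM at 24 h and 9.08, 9.16 and 8.05 CPM at 96 h. The eur1-11 libraries read 6.31, 7.81 and 11.2 CPM at 0 h, 19.5, 18 and 14.6 CPM at 24 h and 8.24, 9.21 and 6.85 CPM at 96 h. In eur1-11 the 0 h and 96 h libraries overlapped, and in WT they were separate by a narrow gap.

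PCNA2 (AT2G29570), the other gene of the clamp, is on chromosome 2 from 12649906 to 12651753. It read 8.09, 6.53 and 9.21 CPM in WT at 0 h, 24.1, 24.2 and 25.5 CPM at 24 h, and 15.1, 13.9 and 12.1 CPM at 96 h. In eur1-11 it read 8.39, 7.95 and 15.9 CPM at 0 h, 25.6, 24.5 and 19.4 CPM at 24 h and 14.2, 14.02 and 11.5 CPM at 96 h. The 24 h libraries were the highest in both genotypes, and the 0 h and 96 h libraries overlapped in eur1-11.

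CYCA3;1 (AT5G43080), on chromosome 5 from 17292952 to 17295024, was the least abundant. It read 0.560, 0.817 and 0.938 CPM in WT at 0 h and 2.98, 2.55 and 2.46 CPM at 24 h. In eur1-11 it read 1.25, 1.61 and 2.11 CPM at 0 h and 3.46, 3.51 and 3.02 CPM at 24 h. The eur1-11 libraries were above all WT libraries at both of these times. At 48 h it read 2.26, 2.302 and 2.36 CPM in WT and 3.197, 2.74 and 2.28 CPM in eur1-11, at 72 h 1.95, 2.24 and 1.25 CPM and 1.71, 2.07 and 1.53 CPM, and at 96 h 1.89, 2.14 and 1.7 CPM and 1.69, 2.08 and 1.31 CPM. From 48 h on the genotypes overlapped.

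Per kilobase of exon, the scale on which levels of different genes can be set side by side, the order at 24 h in WT was led by TSO2 with 41.9 ± 0.912 CPM per kb (SD, n = 3). PCNA2 followed with 20.8 ± 0.682 and PCNA1 with 16.4 ± 1.67 CPM per kb. MCM2 had 12.3 ± 1.47, MCM7 11.4 ± 0.824, MCM5 9.97 ± 1.11, MCM3 8.95 ± 0.960, MCM4 8.63 ± 1.28 and MCM6 6.63 ± 0.768 CPM per kb. CYCA3;1 was last with 1.69 ± 0.174 CPM per kb. From MCM2 down to MCM4 the libraries of neighbours in this order overlapped, while TSO2, PCNA2, PCNA1, MCM6 and CYCA3;1 each stood clear of the genes next to them. The unequal levels of the MCM genes are levels of transcript and not of subunits.

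At 24 h against 0 h all 10 genes were higher in WT by edgeR's quasi-likelihood test, where a gene was called at a Benjamini-Hochberg adjusted p under 0.05 over all genes tested. Of all genes 35.9% were called higher in this comparison. The median log2 fold change of the 10 was 1.62, and that of all genes tested was 0.07. CYCA3;1 had the highest fold, with a log2 fold change of 1.83 ± 0.24 (SE) and an edgeR adjusted p of 1.04e-06. MCM6 followed with 1.73 ± 0.24 and TSO2 with 1.72 ± 0.16, and MCM3 had the lowest value with 1.095 ± 0.21. The MCM genes other than MCM3 lay between 1.48 (MCM7) and 1.73, PCNA1 rose by 1.60 ± 0.19 and PCNA2 by 1.64 ± 0.21 on the same log2 scale. The 5 genes with an E2F motif in the window had a median log2 fold change of 1.60 and the 5 without one 1.64.

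The rise lasted in WT. All 10 genes were called higher than at 0 h at 48 h, where 37.6% of all genes were, at 72 h (37%) and at 96 h (38.1%). Their median log2 fold change went from 1.62 at 24 h to 1.17 at 48 h, 1.05 at 72 h and 1.12 at 96 h. These comparisons share the 0 h libraries. At 96 h TSO2 had a log2 fold change of 1.34 ± 0.16 and CYCA3;1 1.34 ± 0.25, against 0.51 ± 0.19 for PCNA1 and 0.69 ± 0.21 for MCM3. The edgeR adjusted p of PCNA1 was 0.0212 there.

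In eur1-11 all 10 genes were also called higher at 24 h, where 34.6% of all genes were, with a median log2 fold change of 1.03. TSO2 led with 1.14 ± 0.16 and MCM3 was again the lowest with 0.69 ± 0.20. At 48 h 8 of 10 were called higher (34.8% of all genes), all except MCM3 and MCM6, with a median of 0.68. At 72 h 4 of 10 were called higher (34.3% of all genes), namely MCM2, MCM4, MCM5 and TSO2, with a median of 0.19, and at 96 h the same 4 were called (36.4% of all genes), with a median of 0.29. TSO2 kept a log2 fold change of 0.75 ± 0.16 at 96 h, while PCNA1 had -0.05 ± 0.18, CYCA3;1 0.03 ± 0.21 and MCM6 0.10 ± 0.22, with edgeR adjusted p of 0.814, 0.918 and 0.695. The share of the 10 called at 72 and 96 h was close to that of all genes.

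The later counts in eur1-11 depended on single libraries. Counts from fits with a library left out are given, here and below, without the share of all genes called in the same fit. Replicate 3 at 0 h was the highest of its group for all 10 genes, with a median log2 ratio of 0.69 to the mean of replicates 1 and 2. With that library left out, 10 genes were called at 48 h, 8 at 72 h and 8 at 96 h, and the median log2 fold change was 1.30 at 24 h, 0.94 at 48 h, 0.60 at 72 h and 0.72 at 96 h. Leaving out eur1-11 replicate 1 at 0 h gave 5 calls at 48 h and 1 at 72 h, and 2 genes were called at 72 h without eur1-11 replicate 2 at 0 h, or without replicate 1 or replicate 2 at 72 h. In WT replicate 3 was also the highest of the 0 h group for all 10 genes, with a median log2 ratio of 0.38. At 24, 48, 72 and 96 h replicate 3 was instead the lowest of the eur1-11 group for 10, 10, 8 and 10 genes. In WT it was the lowest for 8, 9 and 10 genes at 24, 72 and 96 h, but the highest for 7 at 48 h. Replicate 3 thus deviated in both genotypes, and mostly in the opposite direction after 0 h.

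**Figure D2:**
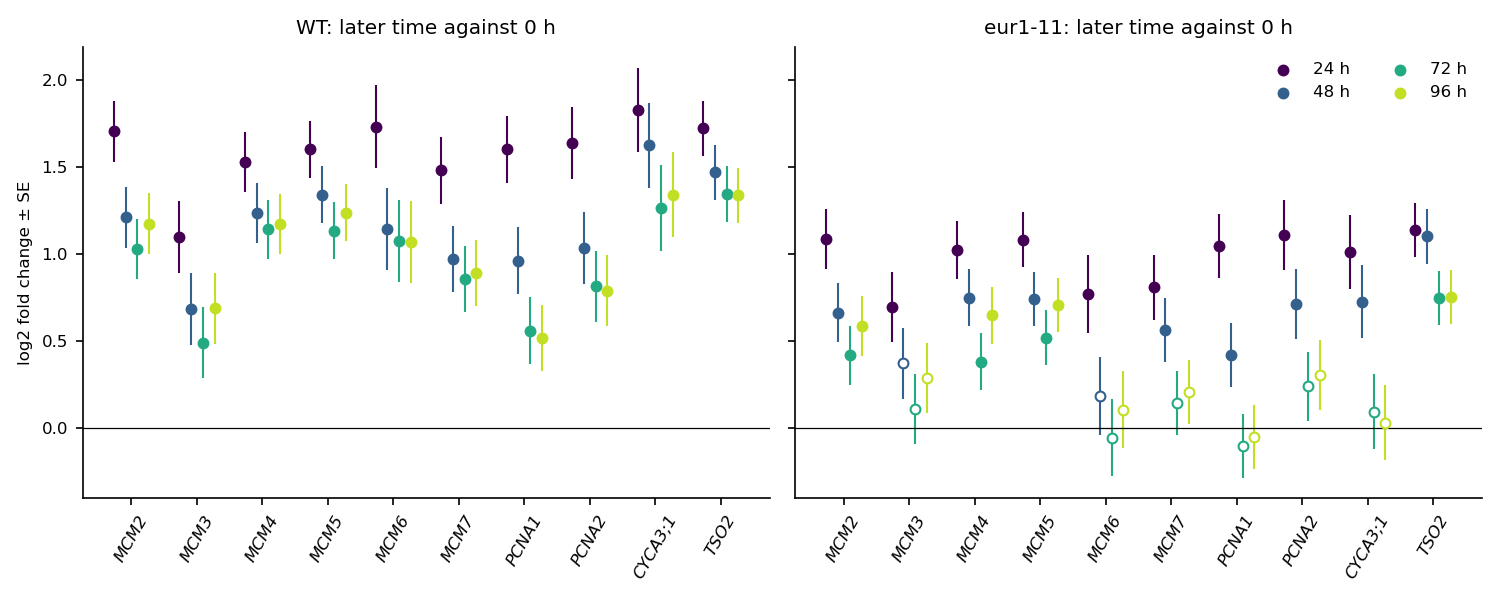
Log2 fold change of each gene against 0 h with SE bars, in WT (left) and eur1-11 (right), coloured by time. Filled points passed an adjusted p under 0.05 by edgeR and open points did not. All WT points are filled, and in eur1-11 the open points are at 48, 72 and 96 h.

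From 24 h to 96 h the fitted values of all 10 genes went down in both genotypes. In WT 5 of 10 were called lower (18.9% of all genes), namely MCM2, MCM6, MCM7, PCNA1 and PCNA2, with a median log2 fold change of -0.51 over the 10 and 0.00 over all genes. In eur1-11 6 of 10 were called lower (18.9% of all genes), these 5 and CYCA3;1, with a median of -0.55. PCNA1 fell by 1.09 ± 0.18 on the log2 scale in WT and by 1.098 ± 0.18 in eur1-11, with edgeR adjusted p of 0.000111 and 0.000101. PCNA2 fell by 0.85 ± 0.19 in WT and by 0.81 ± 0.19 in eur1-11. TSO2 had -0.38 ± 0.15 in both and MCM4 -0.35 ± 0.16 in WT and -0.38 ± 0.16 in eur1-11, and neither was called. These counts were sensitive to single libraries. Leaving out 1 library gave 2 to 6 calls in WT, with 2 without replicate 2 at 24 h or replicate 3 at 96 h and 3 without replicate 1 at 24 h or replicate 2 at 96 h. In eur1-11 it gave 3 to 7, with 3 without replicate 2 at 24 h or replicate 3 at 96 h.

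The genotypes were compared at 0 h in 6 libraries, which are drawn for each gene in the plot of levels at 0 h. All 10 genes had higher fitted values in eur1-11, with log2 fold changes from 0.31 (MCM3) to 1.14 (CYCA3;1) and a median of 0.51. By edgeR 2 of 10 were called higher (1.47% of all genes). CYCA3;1 was 2.2-fold higher, with a log2 fold change of 1.14 ± 0.26 and an edgeR adjusted p of 0.0237. MCM6 (AT5G44635) was 1.92-fold higher, with 0.94 ± 0.24 and an edgeR adjusted p of 0.0433. MCM6 read 5.24, 4.70 and 7.67 CPM in WT and 7.003, 9.80 and 16.8 CPM in eur1-11, so that the lowest eur1-11 library lay within the WT range. For CYCA3;1, MCM2, MCM4 and MCM5 all 3 eur1-11 libraries were above all 3 WT libraries, and 8.89% of all genes tested showed that pattern. The labels do not say what the replicate number marks, and it does not tell replicates 1 and 2 apart. Paired by that number, eur1-11 was above WT for 10 of 10 genes in each of the 3 pairs. The median log2 ratios were 0.11, 0.62 and 0.79 in replicates 1, 2 and 3, and the smallest were 0.03, 0.16 and 0.51. The 10 genes follow each other across libraries (median Pearson's r 0.915), so they are not 10 separate observations. No share of all genes is given for these pairs. At 24 h eur1-11 was above WT for 5, 2 and 2 of the 10 genes in replicates 1, 2 and 3. The counts were 10, 8 and 0 at 48 h, 0, 1 and 3 at 72 h and 0, 8 and 0 at 96 h.

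The 0 h result depended on which libraries were kept. Without eur1-11 replicate 3 at 0 h no gene was called by edgeR and the median log2 fold change was 0.20. Without WT replicate 1 or WT replicate 2 at 0 h it was also 0 calls, with medians of 0.53 and 0.41, and without eur1-11 replicate 1 it was 7. When the replicate number was blocked separately at each time, 7 were called, these 2 with MCM2, MCM4, MCM5, MCM7 and TSO2. The share of all genes called under that block is not given, so these 7 calls are not set against it. Markers of the stomatal lineage, which are expressed by dividing cells of the leaf epidermis, were also highest in eur1-11 replicate 3. That library stood apart from its group across all genes compared, not in these markers alone. Its chi-square per degree of freedom, which sets differences against sampling noise, was 128.7 and 103.4 to replicates 1 and 2. Between replicates 1 and 2 it was 6.62. The summed level of SPCH, MUTE, TMM, EPF2 and BASL was 1.17, 1.97 and 2.05 CPM in WT at 0 h and 2.37, 1.80 and 6.76 CPM in eur1-11. The gene TMM (TOO MANY MOUTHS) alone passed the filter on low counts, and its log2 difference of 0.81 ± 0.43 (SE, n = 3) did not pass edgeR's test (adjusted p = 0.351). SPCH, MUTE, EPF2 and BASL had mean levels of 0.280, 0.152, 0.107 and 0.368 CPM in eur1-11 and of 0.0511, 0.0793, 0.108 and 0.0511 CPM in WT, and were not tested. The sum over the 12 genes of the mitosis list was 46.6, 44.6 and 52.9 CPM in WT and 55.0, 52.9 and 68.6 CPM in eur1-11, again highest in eur1-11 replicate 3. For the cambium, the dividing layer of the vascular tissue, the sum of 5 markers was 79.2 to 84.9 CPM in WT and 73.9 to 79.5 CPM in eur1-11. For mesophyll cells the sum of 4 photosynthesis markers was 17520 to 21950 CPM in WT and 18540 to 28060 CPM in eur1-11. The part of these cell types in the 0 h difference was not tested.

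**Figure D3:**
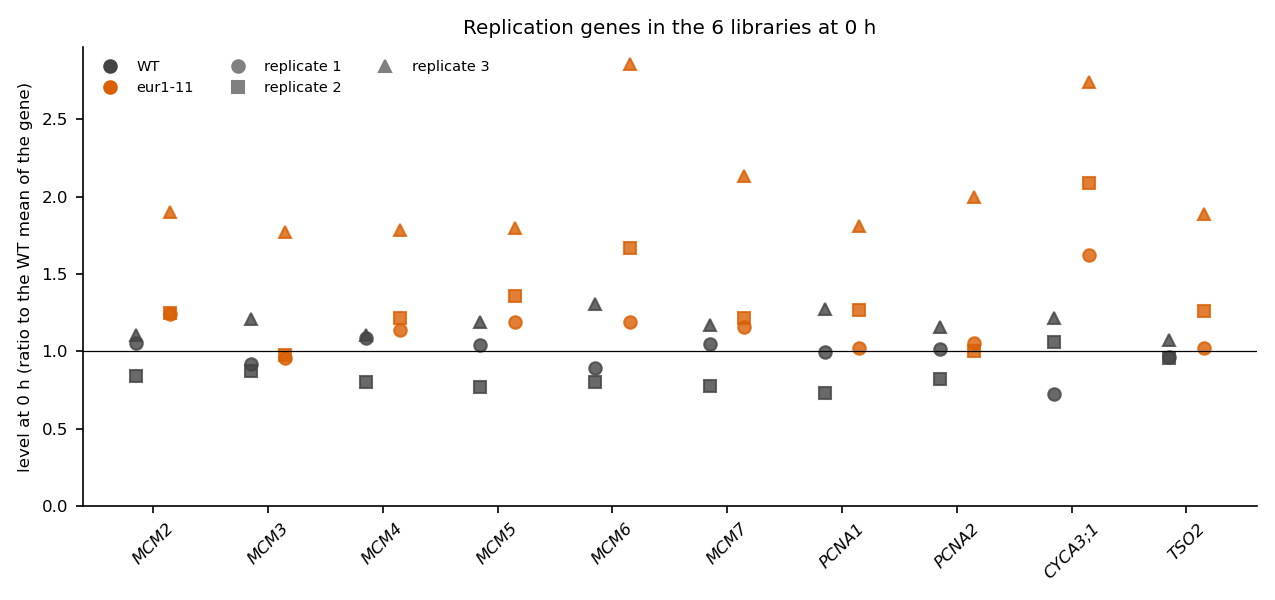
Level of each gene in the 6 libraries at 0 h as a ratio to its WT mean (linear axis from 0), with symbols for replicate number. The eur1-11 triangle (replicate 3) is the highest point of every gene, and eur1-11 replicates 1 and 2 lie near the WT points for MCM3 and PCNA2.

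After excision the genotypes were close. None of the 10 genes was called by edgeR between eur1-11 and WT at 24 h (0.331% of all genes), 48 h (0.34%), 72 h (0.48%) or 96 h (0.517%), and none had an unadjusted p under 0.05 at any of these times. DESeq2 called none either. The median log2 fold changes of eur1-11 against WT were -0.07, 0.00, -0.12 and -0.07, and single genes lay between -0.29 (MCM4 at 72 h) and 0.32 (CYCA3;1 at 24 h). At 24 h the 3 eur1-11 libraries were all above WT for CYCA3;1 (5.57% of all genes) and all below WT for TSO2 (4.43%), and at 72 h all below for PCNA1 (8.87%). Averaged over the 5 times none was called (5.71% of all genes), with the lowest edgeR adjusted p at 0.0718 for CYCA3;1 and 1 gene at an unadjusted p under 0.05. DESeq2 called 1 gene in that average, and edgeR called 1 without eur1-11 replicate 1 at 0 h or without WT replicate 3 at 0 h.

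Whether the rise itself differed between genotypes was tested by the interaction of genotype and time. None of the 10 genes was called by edgeR at 24 h (0% of all genes), 48 h (0%), 72 h (0.014%) or 96 h (0.0792%). DESeq2 called none either. All 10 estimates were negative at each time, a smaller rise in eur1-11, with medians of -0.57, -0.51, -0.64 and -0.57. Unadjusted p was under 0.05 for 8, 4, 8 and 8 of the 10, and for 8.76, 8.94, 9.89 and 10.2% of all genes. The 4 interactions share the 0 h libraries with each other and with the comparison at 0 h, so they repeat its difference. The lowest edgeR adjusted p was 0.129 (CYCA3;1 at 96 h, log2 interaction -1.31 ± 0.33). Without eur1-11 replicate 3 at 0 h the medians were -0.29, -0.23, -0.36 and -0.30. With eur1-11 replicate 1 at 0 h left out 1 gene was called at 72 h, and with WT replicate 3 at 0 h left out 1 was called at 96 h.

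Across the 30 libraries the log2 levels of the 10 genes followed each other, with Pearson's r from 0.755 to 0.981 in their 45 pairs and a median of 0.915. These values are across libraries of 10 groups that share the difference between 0 h and later times, and are given as a description. MCM7 was most like the mean of the other 9 genes (r = 0.980) and PCNA1 least (r = 0.892). Among 18314 other genes with a mean of at least 1 CPM, 3.81% had r of at least 0.9 with the standardised mean of the 10. The 10 most like it were RPA70D (r = 0.985), RNR1 (0.984), RPA2 (0.980), AT1G09200 (0.977), HMGB6 (0.976), HTB4 (0.976), MEE5 (0.976), ABAP1 (0.972), ETG1 (0.971) and AT5G65360 (0.971). RPA70D and RPA2 are subunits of replication protein A, which coats single-stranded DNA, RNR1 is the large subunit of ribonucleotide reductase, ETG1 is a partner of the MCM ring, ABAP1 is a repressor of replication licensing, HTB4 encodes histone H2B, and AT1G09200 and AT5G65360 encode histone H3.1. RNR1 read 27.8 ± 4.28 CPM in WT at 0 h, 87.4 ± 15.2 CPM at 24 h and 56.1 ± 9.91 CPM at 96 h (SD, n = 3). RPA70D read 6.76 ± 1.97, 34.7 ± 6.59 and 17.9 ± 3.19 CPM at the same times. When the 0 h libraries were left out, RPA70D still had r = 0.970 with the mean of the 10 and RNR1 0.962.

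The other genes of replication were described in lists written with earlier results of these data known, and their fold changes at 24 h are plotted by list. Genes called higher at 24 h made up 35.9% of all genes in WT and 34.6% in eur1-11. Genes called lower at 24 h made up 32.1% of all genes in WT and 31.7% in eur1-11. Of the 11 genes of origin recognition and licensing, 10 were called higher in WT at 24 h and 9 in eur1-11, with median log2 fold changes of 1.65 and 1.05 and none called lower. ORC6 (AT1G26840), a subunit of the origin recognition complex, went from 0.810 ± 0.259 to 5.195 ± 0.891 CPM in WT (log2 fold change 2.66 ± 0.20, edgeR adjusted p 3.2e-10). AT1G07270 (2.46 ± 0.32) and CDT1B (1.80 ± 0.40), a licensing factor, followed, and ORC5 was the one not called (0.32 ± 0.16). Of 10 genes of helicase activation and the fork, 9 were called higher in WT and 8 in eur1-11, among them MCM10 (1.998 ± 0.34 in WT), CDC45 (1.84 ± 0.24), which joins the MCM ring in the active helicase, and ETG1 (1.67 ± 0.18). PSF3, a subunit of the GINS complex, had -0.20 ± 0.21 in WT.

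Of 26 measured genes of polymerases, clamp loader, replication protein A and Okazaki fragment maturation, 23 were called higher in WT and 21 in eur1-11, with medians of 1.18 and 0.99. The share of all genes called higher was 35.9% in WT and 34.6% in eur1-11. AT5G26680 (2.51 ± 0.24), RPA70D (AT5G61000, 2.36 ± 0.25) and AT5G08020 (2.26 ± 0.26) had the highest log2 fold changes in WT. Deoxynucleotide supply was less uniform, with 5 of 7 called higher and 1 lower in WT and 4 higher in eur1-11. RNR1 rose by 1.65 ± 0.23 and DUT1, a dUTPase, by 1.45 ± 0.21, THY2 rose by 0.98 ± 0.16, and THY1 fell by 0.21 ± 0.08 on the log2 scale in WT. THY1 and THY2 each encode a joint dihydrofolate reductase and thymidylate synthase. RNR2A, another small subunit of ribonucleotide reductase beside TSO2, had -0.02 ± 0.16 in WT and was not called. Of 10 genes of chromatin assembly and histone H3.1, 8 were called higher in both genotypes, with medians of 1.64 and 0.9955, and the H3.1 genes AT5G10400 (2.33 ± 0.21), AT5G10390 (2.23 ± 0.18) and AT1G09200 (2.16 ± 0.22) led in WT.

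Genes that act before and after S phase were also measured, beside the 35.9% of all genes called higher in WT and 34.6% in eur1-11. Of 12 mitosis genes 11 were called higher in WT at 24 h and 8 in eur1-11, with medians of 1.02 and 0.85, led in WT by CYCB2;1 (2.51 ± 0.36), CDKB1;2 (1.46 ± 0.30) and CDKB2;2 (1.36 ± 0.25), a mitotic cyclin and 2 kinases of the same phase. Of 18 measured genes of G1 to S control 8 were called higher and 3 lower in WT, and 8 higher and 4 lower in eur1-11, with medians of 0.20 and 0.19. CYCA3;2, the closest relative of CYCA3;1 in the list, rose by 1.67 ± 0.19 and DEL1, an atypical E2F, by 1.55 ± 0.31, while DEL2, of the same family, fell by 1.44 ± 0.45. Of 9 inhibitors of cyclin-dependent kinases 2 were called higher, KRP3 (2.07 ± 0.39) and KRP5 (1.996 ± 0.30), and 1 lower, SIM (-1.05 ± 0.33), in WT. In the DNA damage list 6 of 10 were called higher and 2 lower in WT, and 3 higher and 3 lower in eur1-11. The kinase inhibitors called higher in WT and the DNA damage genes called higher in eur1-11 were below the share of all genes. G1 to S control was only a little above it. GMI1, which is named for its induction by gamma irradiation, rose by 2.76 ± 0.28 and WEE1, a kinase that halts the cycle, by 2.002 ± 0.22, and SMR5, an inhibitor of cyclin-dependent kinases that DNA damage induces, fell by 2.92 ± 0.31 in WT.

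**Figure D4:**
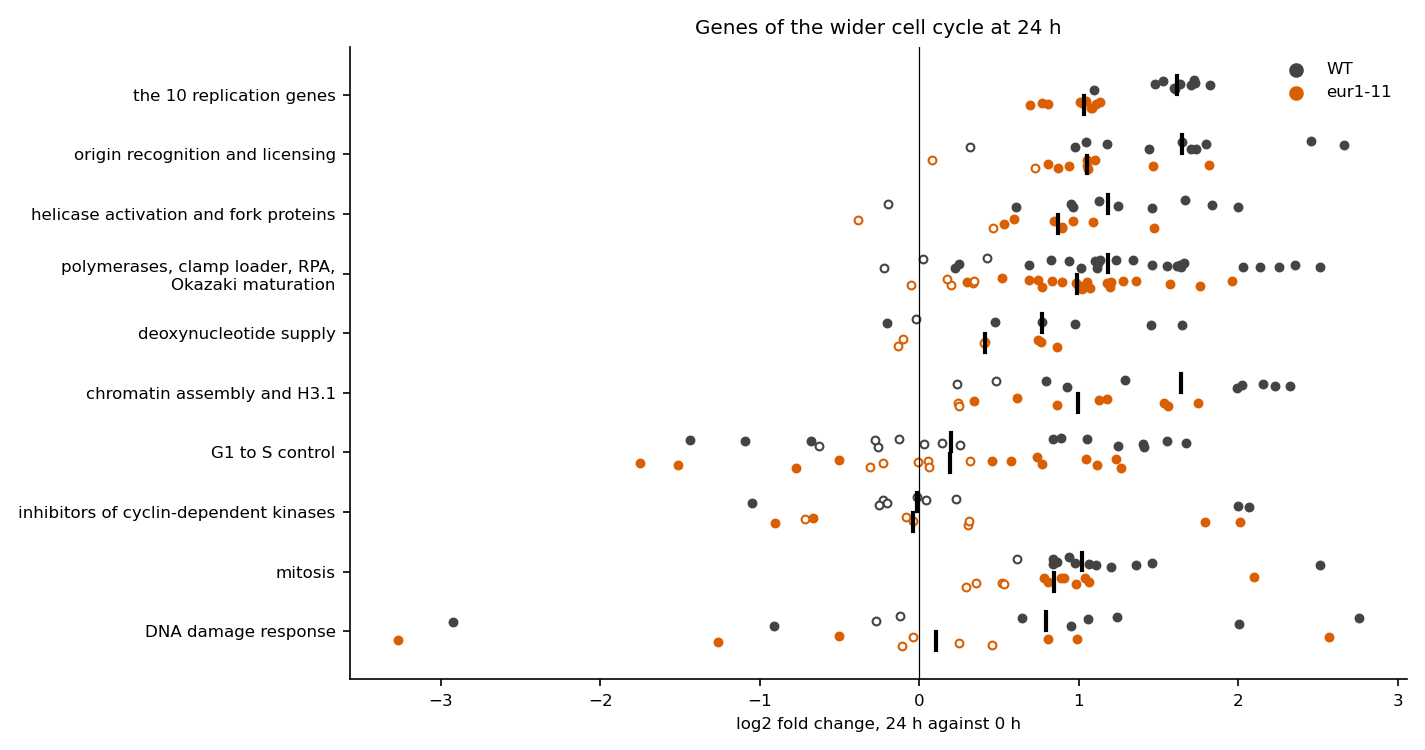
Log2 fold change at 24 h against 0 h of the 10 replication genes and of the genes of 9 lists, in WT and eur1-11, with 1 point per gene and a black bar at the median. Filled points passed an adjusted p under 0.05 by edgeR. The licensing, chromatin and mitosis lists lie wholly right of 0, while the helicase, polymerase and deoxynucleotide lists reach slightly left of it and G1 to S control, the kinase inhibitors and DNA damage genes spread widely on both sides.

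At 96 h in WT, where 38.1% of all genes were called higher than at 0 h, this held for 7 of 11 licensing genes, 7 of 10 helicase genes, 20 of 26 genes of the polymerase list, 5 of 7 genes of deoxynucleotide supply, 8 of 10 chromatin genes and 8 of 12 mitosis genes, and for 9 of 18 genes of G1 to S control, 3 of 9 kinase inhibitors and 3 of 10 DNA damage genes. In eur1-11, where 36.4% of all genes were called higher, the same lists in the same order had 5, 5, 16, 2, 5, 4, 3, 5 and 2 such genes. The kinase inhibitors and DNA damage genes in WT, and deoxynucleotide supply, mitosis, G1 to S control and DNA damage genes in eur1-11, were below the share of all genes. Called lower at 96 h were 1 gene of the polymerase list, 2 of G1 to S control, 1 kinase inhibitor and 2 DNA damage genes in WT, and 1, 3, 2 and 4 in eur1-11. Between genotypes at 0 h 2 of the 113 measured genes of the 9 lists were called higher in eur1-11, which is 1.77% beside 1.47% of all genes. The H3.1 gene AT5G10390 read 4.22 ± 0.675 CPM in WT and 8.09 ± 2.60 CPM in eur1-11 (log2 fold change 0.93 ± 0.18, edgeR adjusted p 0.00972). PARP2 (AT4G02390), a poly(ADP-ribose) polymerase of the DNA damage response, read 1.33 ± 0.0356 and 2.64 ± 0.754 CPM (0.97 ± 0.22, edgeR adjusted p 0.0229).

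Markers of several other cell types moved over the same hours. The summed level of the 5 cambium markers was 79.2 to 84.9 CPM at 0 h and 138.7 to 146.5 CPM at 24 h in WT. Of these 5, 4 were called higher (35.9% of all genes). The sum of 7 markers of root founder cells and root meristem was 11.1 to 14.3 CPM at 0 h and 26.9 to 28.2 CPM at 24 h in WT. WOX11, LBD16, WOX5, PLT1 and PLT2, which define these cells, were all at 0 counts in WT at 0 h, and WOX5 and PLT2 were still at 0 at 24 h, when PLT1 had 3 counts. WOX11 and LBD16 were called higher at 24 h by edgeR and stood at 3.61 ± 0.29 and 3.27 ± 0.59 CPM (SD, n = 3). The sum at 0 h in WT therefore came from SHR and SCR, of the same list, alone. SHR was called higher at 24 h, with a log2 difference of 1.18 ± 0.13 (SE). SCR was not called, with a log2 difference of 0.02 ± 0.17 (SE). The sum of 4 photosynthesis markers of mesophyll cells was 17520 to 21950 CPM at 0 h and 931.5 to 3037 CPM at 24 h in WT. All 4 were called lower (32.1% of all genes). In eur1-11 the same sums went from 73.9 to 79.5 CPM to 124.0 to 143.5 CPM for cambium, from 11.2 to 12.9 CPM to 23.4 to 26.5 CPM for root founder cells and root meristem, and from 18540 to 28060 CPM to 1009 to 3163 CPM for mesophyll. Mean sums of other markers at 0 and 24 h in WT were 816.8 and 158.5 CPM for epidermis and 337 and 227.7 CPM for phloem. They were 26.9 and 20.6 CPM for guard cells and 129.2 and 142.7 CPM for xylem, whose libraries overlapped. In eur1-11 they went from 768.2 to 189.8, 301.8 to 194.5, 28.3 to 23.7 and 135 to 143.5 CPM in that order. There the guard cell and xylem libraries overlapped. The part of cell makeup in the rise of the replication genes was not tested.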

How the data were processed

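For each of the 30 libraries the authors deposited raw counts per gene, made with FastQC, STAR (on TAIR10) and HTSeq, neither normalized nor pooled. Tool versions, the annotation release and the strand option are not stated in the sources used here. Reads on no gene (3.58 to 6.76% of a library) and ambiguous reads (2.43 to 3.45%) were left out. Of 33602 identifiers 32835 were found in the TAIR10.1 annotation, which gave names and positions, and no sample column was left unmatched.

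The quasi-likelihood F test of edgeR 4.0.16 (R 4.3.3) was run on all 30 libraries, with TMM factors, a filter by group (filterByExpr) and 1 term per group. Following the study, replicate number was a block. P-values were adjusted over all 21472 genes tested. The SE is the size of the log2 fold change over the root of its F value. Libraries of equal number from both genotypes deviated together from their group means in 15 of 15 pairs (r over 0.1, mean 0.518, 16257 genes). Of 30 pairs of unequal number 10 were over 0.1 too, and all of these joined replicates 1 and 2. The mean over the 30 was -0.211. The pattern sets replicate 3 apart and does not tell replicates 1 and 2 apart by number. The labels do not say what the number marks. No 2 replicates matched within sampling noise (chi-square per degree of freedom at least 5.27).

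The 10 genes, the lists and the tests were chosen with earlier results of these data known. Genes of the lists were named by rule: the 3 highest absolute fold changes among those called in WT at 24 h per list, any gene called between genotypes or in an interaction, and the 10 genes most like the members in log2 CPM (prior count 2). Genes named beyond it were chosen after their values were seen. Alternatives were DESeq2 1.42.0, no block, a block within each time, upper-quartile and total-count scaling, TMM without organelle genes, no low-count filter, and leaving out each library or replicate number. The tests were tried on simulated counts. Figures were drawn with matplotlib 3.10.9.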

Additional observations from a re-analysis of the deposited data

How the results depend on the processing

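Of 354 alternative counts of called members 302 stayed within 1.5 times of the reported count. The counts in this section are given without the share of all genes called under the same setting. They show only how the number of called members moved. Total-count scaling, under which chloroplast counts weigh on every other gene, moved the median log2 fold change of all genes at 24 h to 1.17 in WT and 1.08 in eur1-11, and that of the 10 genes to 2.72 and 2.06, so the 10 stayed above all genes. It called 10 members in eur1-11 at 72 h and 10 at 96 h, 1 in WT and 2 in eur1-11 between 96 and 24 h, 7 between genotypes at 0 h and 1 in the mean over times. It also turned the log2 fold change in eur1-11 to 1.32 for MCM6 and 1.28 for PCNA1 at 72 h and to 1.43 for PCNA1 at 96 h. From 24 to 96 h it put the median of all genes at 0.50 in WT and 0.45 in eur1-11, and that of the 10 genes at -0.01 and -0.10. A block within each time called 7 members at 0 h and 1 in the mean. DESeq2 called 8 in WT between 96 and 24 h and 1 in the mean. With no replicate block 10 members were called in WT at 24 h, as with it, 6 in WT between 96 and 24 h against 5, and the count was equal in the other comparisons. Leaving out each library or replicate number gave 10 calls in WT at 24 h in every case and 7 to 10 in eur1-11. It gave 2 to 10 in eur1-11 at 48 h, 1 to 8 at 72 h and 2 to 8 at 96 h, 1 to 9 in WT and 2 to 10 in eur1-11 between 96 and 24 h, 0 to 7 between genotypes at 0 h, 0 to 1 at 72 h and 0 to 1 in the mean, and for the interactions 0 to 1 at 24 h, 0 to 3 at 72 h and 0 to 1 at 96 h. MCM6 in eur1-11 at 72 h ranged from -0.38 to 0.46. The causes were not tested. CYCA3;1, at 0.560 to 3.51 CPM, rests on the fewest counts of the 10.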

Other observations

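The ratio of 2 genes within a library does not depend on how libraries are scaled. The pair PCNA1 and TSO2 was chosen after its values were seen, as the genes that kept the least and much of their 24 h level, so the ratios are a description with no test. The ratio of PCNA1 counts to TSO2 counts in WT was 0.297, 0.217 and 0.338 at 0 h and 0.287, 0.268 and 0.232 at 24 h. It was 0.176, 0.204 and 0.221 at 48 h and 0.165, 0.161 and 0.158 at 96 h. In eur1-11 it was 0.287, 0.287 and 0.275 at 0 h, 0.292, 0.267 and 0.231 at 24 h, 0.179, 0.168 and 0.181 at 48 h and 0.166, 0.173 and 0.141 at 96 h. In both genotypes every 24 h library was above every 48 h and every 96 h library. The libraries of 0 and 24 h overlapped in WT and in eur1-11. The 2 clamp genes had a ratio of PCNA1 to PCNA2 counts of 0.758 ± 0.0982 at 24 h and 0.642 ± 0.0371 at 96 h in WT (SD, n = 3), and of 0.750 ± 0.0158 and 0.611 ± 0.0398 in eur1-11.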
